A study of Mus musculus with 143 samples.

Results

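The 10 histone variant genes H1foo, H1f0, H1fx, H2afz, H2afv, H2afx, H2afj, H2afy, H3f3a and H3f3b were followed in single mouse oocytes that lacked 1 or both ribonucleases of the nuclear RNA exosome. The genes were chosen by name, with older symbols matched to current ones, and all 10 were found among 55740 gene IDs in the poly(A) and RiboMinus count files. All 10 passed the filter on low counts. In current nomenclature H1foo is H1f8, H1fx is H1f10, H2afz and H2afv are H2az1 and H2az2, H2afx is H2ax, H2afj is H2aj and H2afy is Macroh2a1.

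Control oocytes were set against oocytes in which Dis3, Exosc10 or both had been conditionally knocked out (Dis3 cKO, Exosc10 cKO and the double knockout dcKO), the genes of the catalytic subunits that degrade and trim RNA in the nuclear exosome. In poly(A) libraries, germinal vesicle (GV) oocytes, GV oocytes after 3 h of culture in M2 medium (GV3h) and ovulated metaphase II (MII) eggs were each sequenced from controls (8 libraries per stage) and from Dis3 cKO females (15, 16 and 16 libraries). In RiboMinus libraries, from which ribosomal RNA was removed and which were primed with random hexamers, there were 8 libraries each of adult GV control, adult GV Dis3 cKO, and control, Dis3 cKO, Exosc10 cKO and dcKO oocytes at postnatal day 20 (p20). MII eggs came from superovulated females. Mutant mice were made with CRISPR/Cas9 per the labels; the Cre driver, the strain, the age of the adults and the number of females behind each group are not given in the sources used here. Nothing says that the libraries of a group came from separate females, so p-values measure the spread between single-oocyte libraries, which may be technical.

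Histone variants are mostly encoded outside the replication-dependent histone clusters, most give polyadenylated transcripts (H2afx also gives a stem-loop form without a tail), and they can enter chromatin without DNA replication, which matters in an oocyte that grows for weeks without dividing. Linker histones of the H1 family bind DNA between nucleosomes; H1foo encodes the oocyte form and H1f0 and H1fx encode replication-independent somatic forms. H2A.Z (H2afz, H2afv), H2A.X (H2afx), H2A.J (H2afj) and macroH2A1 (H2afy) replace canonical H2A, with H2A.X best known for its phosphorylation at DNA breaks. H3.3 is encoded by H3f3a and H3f3b, which specify the same protein. A fully grown GV oocyte has largely stopped transcription, and during maturation to MII many maternal transcripts are degraded or change their poly(A) tails.

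Promoters of 9 of the 10 genes had an entry in the RefSeq sequences of GRCm38.p6; H2afx had none. Shown are the 250 bases before the start of H1foo, the oocyte linker histone, and of H2afj and H2afz, chosen after their values were seen because they had the highest log2 fold changes of the 10 in the double knockout. Capitals mark 3 motifs on either strand: the CCAAT box, the GC box with the letters GGGCGG, and the E-box with the letters CACGTG. The sequences are given 5′ to 3′ on the strand of the gene, which is the plus strand for all 3, at chr6:115944681-115944930, chr6:136807998-136808247 and chr3:137864237-137864486.
H1foo: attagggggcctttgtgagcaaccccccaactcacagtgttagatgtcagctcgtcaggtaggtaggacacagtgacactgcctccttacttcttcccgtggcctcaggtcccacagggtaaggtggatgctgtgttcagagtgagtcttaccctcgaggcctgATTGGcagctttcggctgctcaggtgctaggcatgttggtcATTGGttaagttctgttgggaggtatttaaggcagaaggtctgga
H2afj: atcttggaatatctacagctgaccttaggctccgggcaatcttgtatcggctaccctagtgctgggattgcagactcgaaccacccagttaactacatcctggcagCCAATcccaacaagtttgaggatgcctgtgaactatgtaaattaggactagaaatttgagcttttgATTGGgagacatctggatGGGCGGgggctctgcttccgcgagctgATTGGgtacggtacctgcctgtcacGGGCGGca
H2afz: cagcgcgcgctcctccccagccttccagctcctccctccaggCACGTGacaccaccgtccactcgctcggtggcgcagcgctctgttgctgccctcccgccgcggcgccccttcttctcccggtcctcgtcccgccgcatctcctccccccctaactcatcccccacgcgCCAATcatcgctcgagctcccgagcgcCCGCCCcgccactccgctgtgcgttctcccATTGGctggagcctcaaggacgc

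H1foo held 2 CCAAT matches at a GC content of 53.2%, H2afj held 3 CCAAT and 2 GGGCGG matches at 51.6%, and H2afz held 2 CCAAT, 1 GGGCGG and 1 CACGTG match at 71.2%. Over the 9 promoters, CCAAT was found in 6 and GGGCGG in 6, against 33.85% and 32.7% of all 32851 promoters of the same length, searched on both strands. CACGTG was found in H2afz alone (6.02% of all), TATAAA in H3f3b alone (12.4% of all), and TAATTA and TAATTG in none (4.84% and 7.17% of all). A TAATTG match can overlap a CCAAT match on the other strand. A match describes the letters only.

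The authors' CUT&Tag peak lists were read at the same 9 promoters, here over 300 bases that include 50 after the start, with an overlap of 1 base or more. H3K27me3, a mark of Polycomb repression, gave no peak at any of the 9 in any of 12 lists (adult GV control and Dis3 cKO, p20 control and dcKO), while 10.6% to 20.2% of all promoters had one per list. RNA polymerase II lists (adult GV control and Dis3 cKO, p20 control) held a peak at H1f0 in 1 adult control list and at H2afj in 1 adult Dis3 cKO list, 2 of 81 promoter and list pairs, with 1.32% to 5.88% of all promoters overlapped per list. With 3 lists per group, no difference between groups was tested here.

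The 71 poly(A) libraries held 4843964 to 15412200 gene counts each and the 48 RiboMinus libraries 8492102 to 35429028. Levels are in counts per 1000000 gene counts (CPM), with the gene counts of each library scaled by the TMM factors of edgeR, and were not set against each other between genes, since no exon lengths were used. Dis3 stood at 0.683 to 5.85 CPM in GV, 0.212 to 5.25 in GV3h and 0 to 2.37 in MII Dis3 cKO libraries, against 9.60 to 17.9, 7.28 to 18.0 and 2.67 to 20.9 in controls, and Exosc10 at 0.347 to 10.5 in p20 Exosc10 cKO and 3.10 to 14.4 in dcKO against 102 to 138. All 12 oocyte markers were at 1 CPM or more on average in every group. Of 11 granulosa and cumulus markers, 4 to 8 per group reached that level, and Foxl2 and Inha were at 0 in all MII Dis3 cKO libraries. Their sum ranged over the libraries from 97.8 to 178 CPM in GV control and 73.1 to 188 in GV Dis3 cKO, from 73.9 to 115 and 50.3 to 96.4 at GV3h, and from 104 to 217 and 63.9 to 102 at MII. It ranged from 86.5 to 138 in adult control, 87.5 to 171 in adult Dis3 cKO, 129.6 to 174 in p20 control, 124 to 202 in Dis3 cKO, 137 to 193 in Exosc10 cKO and 117 to 179.7 in dcKO. Cyp19a1, 1 of these markers, was at 36.2, 40.5 and 64.5 CPM on average in GV, GV3h and MII control libraries and at 14.2, 10.5 and 27.4 in Dis3 cKO, and at 28.4 in p20 control and 4.60 in dcKO. The median sum of all 11 was 118, 89.9 and 117 CPM in these poly(A) controls and 88.7, 73.6 and 79.5 in Dis3 cKO. At p20 the median sum was higher in dcKO than in control (157 against 139 CPM), the opposite direction to Cyp19a1. The sum of 10 stroma, theca and blood markers was at most 17.1 CPM in any library. The part of these markers in the results was not tested. GV Dis3 cKO libraries 6 and 8 and MII Dis3 cKO library 15 correlated less with their groups than the others (median r lower by 0.0712, 0.104 and 0.186). By gene counts, several results that rest on them are given with and without them. Results on the scale of the added ERCC RNAs are given with all libraries only. MII Dis3 cKO library 15 held 14.4 gene counts per ERCC count, where the median of its group was 53.3.

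The first question was which variants differed between knockout and control oocytes at each stage. In poly(A) data 1 higher and 2 lower of 10 passed the test at GV, 5 higher and 2 lower at GV3h and 5 higher and 1 lower at MII (edgeR, adjusted p under 0.05), where 21.9%, 38.6% and 42.1% of all genes tested did. In RiboMinus data 3 higher and 0 lower passed in adult GV Dis3 cKO (28.1% of all genes), 0 higher and 0 lower in p20 Dis3 cKO (7.37%), 1 higher and 1 lower in p20 Exosc10 cKO (7.45%) and 5 higher and 1 lower in dcKO (53.7%). For p20 Dis3 cKO, where edgeR and DESeq2 each called 0 of 10, 1 gene, H1f0, had an unadjusted p under 0.05 in edgeR (log2 fold change -0.28, SE 0.12, edgeR adjusted p 0.189), and 1 of 10 did in DESeq2. The median log2 fold change of the 10 was 0.014, 0.25 and 0.48 at the 3 poly(A) stages, beside 0.035, 0.067 and 0.16 for all genes, and 0.25 in dcKO beside -0.006. H2afj was called higher in 6 of these 7 comparisons and H2afy in 4, H1f0 in 3 and H2afz in 2, each never lower; H1foo and H2afv were called lower in 2 and never higher, and H3f3b was called in none by gene counts. The 3 p20 comparisons share the same 8 control libraries, so their values are not independent.

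These counts are relative to the other RNA of a library. With libraries scaled to the ERCC RNAs instead, the median log2 fold change of all genes was -0.23 at GV, 0.043 at GV3h and 0.52 at MII, -0.52 in adult Dis3 cKO, -0.31 in p20 Dis3 cKO and -0.083 in dcKO, and in Exosc10 cKO it was near 0. Calls among the 10 then numbered 1 higher and 3 lower at GV, 5 and 1 at GV3h, 7 and 0 at MII, 1 and 5 in adult Dis3 cKO, 0 and 0 in p20 Dis3 cKO, 1 and 0 in Exosc10 cKO and 3 and 0 in dcKO. Of all 17389 genes tested in poly(A) data, 3582, 4896 and 7284 were called on that scale at GV, GV3h and MII. Such counts for adult Dis3 cKO and Exosc10 cKO, of 15334 and 15882 genes tested, stand in the last section. For p20 Dis3 cKO and for dcKO against control they are not given here. The calls among the 10 in those 2 comparisons therefore cannot be set against all genes on the ERCC scale. H2afj kept its call and direction in all 6 comparisons on that scale, with log2 fold changes of 1.02, 1.78, 3.79, 1.71, 0.97 and 1.80 in the order above. In adult Dis3 cKO the called decreases on the ERCC scale were H1foo -0.54, H1f0 -0.44, H2afv -0.90, H2afx -0.75 and H3f3a -0.49, each close to or beyond the median of all genes there.

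**Figure D1:**
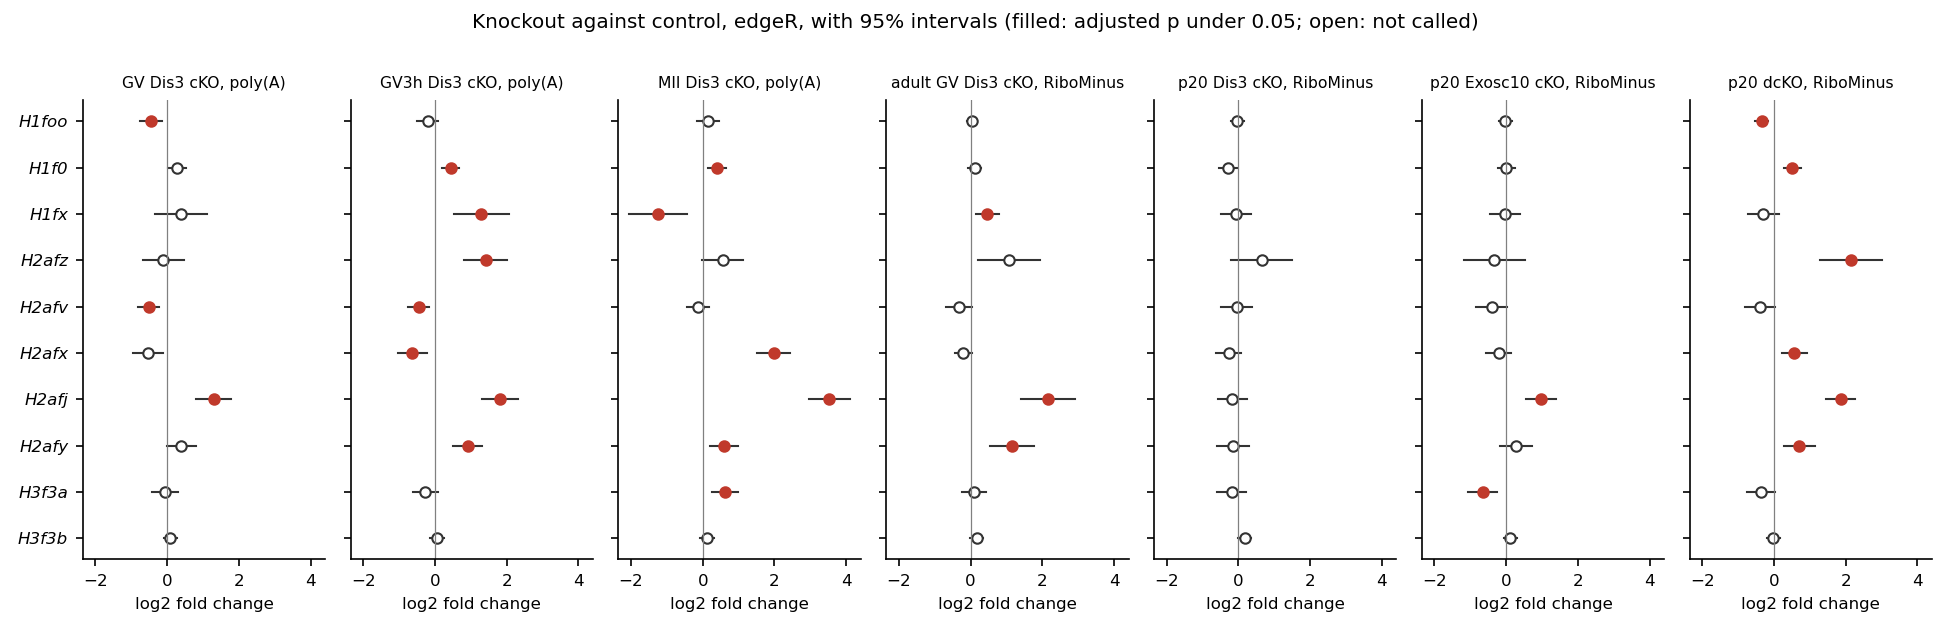
Log2 fold change of each histone variant gene (rows) in 7 comparisons of knockout with control oocytes (panels), from edgeR with 95% intervals; filled points passed an adjusted p of 0.05. H2afj is filled and to the right in 6 of the 7 panels, and all points of p20 Dis3 cKO are open.

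H1foo (ENSMUSG00000042279, chr6:115944931-115950242), which encodes the oocyte linker histone, was lower in Dis3 cKO oocytes at GV. Control GV libraries ranged from 3222 to 5378 (median 4009) and Dis3 cKO libraries from 1290 to 4040 (median 3261) CPM. The groups overlapped, with 7 of 15 knockout libraries below every control. Means were 3026 ± 762 CPM (SD, n = 15) against 4146 ± 622 CPM (SD, n = 8) (log2 fold change -0.45, SE 0.15, edgeR adjusted p 0.0222). The lowest knockout values were those of libraries 6 (1569 CPM) and 8 (1290 CPM), the ones that stand apart, and without the libraries that stand apart the mean was 3272 ± 429.5 CPM (SD, n = 13) and the log2 fold change -0.34 (edgeR adjusted p 0.00215). With the replicate number as a block the call was lost, at -0.41 (edgeR adjusted p 0.0752). The labels do not say whether equal numbers pair these libraries. At GV3h the levels were 3071 ± 374 against 3535 ± 190 CPM, a difference that did not pass the test in the fit of all 6 groups (log2 fold change -0.20, SE 0.15, edgeR adjusted p 0.298) but did in a fit of the 2 groups alone, at -0.22 (edgeR adjusted p 0.00667). At MII they were 9152 ± 2508 against 8302 ± 1297 CPM (log2 fold change 0.14, SE 0.15, edgeR adjusted p 0.481); MII Dis3 cKO library 15 stood at 1552 CPM where the others ranged upward from 5793, and without the libraries that stand apart the log2 fold change was 0.22 (edgeR adjusted p 0.0363). On the ERCC scale the MII difference was 0.54 (edgeR adjusted p 0.0333).

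In RiboMinus libraries H1foo fell in the double knockout. Control p20 libraries ranged from 1036 to 1328 (median 1244), Dis3 cKO from 1060 to 1449 (median 1160), Exosc10 cKO from 816 to 1662 (median 1216) and dcKO from 815 to 1146 (median 961) CPM. All dcKO libraries but 1 lay below every control library and below every Dis3 cKO library, while the Exosc10 cKO libraries spread over almost the whole range of the 4 groups. The change in dcKO was -0.34 against control (959 ± 103 CPM (SD, n = 8) against 1220 ± 96.3, SE 0.094, edgeR adjusted p 0.00297), -0.31 (edgeR adjusted p 0.00694) against Dis3 cKO and -0.32 (edgeR adjusted p 0.00546) against Exosc10 cKO. With libraries scaled to the added ERCC RNAs these were -0.38 (edgeR adjusted p 0.0653), -0.025 (edgeR adjusted p 0.924) and -0.33 (edgeR adjusted p 0.125), none past the threshold. Within the dcKO and control libraries that carry a 2 in their titles the change was -0.20 (edgeR adjusted p 0.365), and within those that carry a 1 it was -0.46 (edgeR adjusted p 0.000628). The decreases from Dis3 cKO and Exosc10 cKO were also lost within the libraries with a 2 (-0.17, edgeR adjusted p 0.445 and -0.18, edgeR adjusted p 0.402). In adult GV oocytes the levels were 1499 ± 189 in Dis3 cKO and 1482 ± 88.4 CPM in control (log2 fold change 0.039, SE 0.069, edgeR adjusted p 0.718), and the 95% interval of the difference was -0.10 to 0.17.

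H1f0 (ENSMUSG00000096210, chr15:79028212-79030504), a replication-independent linker histone gene that is active in many non-dividing cells, rose in Dis3 cKO at GV3h and MII and in the double knockout. At GV3h controls ranged from 47.3 to 68.3 (median 56.6) and Dis3 cKO libraries from 56.0 to 95.4 (median 74.2) CPM, with 12 of 16 knockout libraries above every control (log2 fold change 0.43, SE 0.12, edgeR adjusted p 0.00325). At MII the ranges were 71.05 to 112 and 77.3 to 216 CPM, and 8 of 16 knockout libraries were above every control (log2 fold change 0.40, SE 0.12, edgeR adjusted p 0.00636). In a fit of the 2 MII groups alone the edgeR adjusted p was 0.0688. Without MII Dis3 cKO library 15 the knockout range was 77.3 to 160 CPM. At GV the value was 74.3 ± 11.7 against 61.6 ± 5.80 CPM (log2 fold change 0.27, SE 0.12, edgeR adjusted p 0.11), with 12 of 15 knockout libraries above every control. At p20, dcKO libraries stood at 84.2 ± 14.5 CPM, control at 59.1 ± 9.65, Dis3 cKO at 48.5 ± 6.37 and Exosc10 cKO at 59.7 ± 13.4. Every dcKO library was above every Dis3 cKO library (log2 fold change 0.80, SE 0.13, edgeR adjusted p 3.04e-06), and the increases over control (0.52, edgeR adjusted p 0.000683) and over Exosc10 cKO (0.51, edgeR adjusted p 0.001) were smaller. ERCC scaling left the increase over Dis3 cKO past the threshold (1.01, edgeR adjusted p 0.000217) but not those over control (0.42, edgeR adjusted p 0.103) and over Exosc10 cKO (0.47, edgeR adjusted p 0.0786). Within libraries with a 2 in their titles the increase over control was 0.26 (edgeR adjusted p 0.273) and that over Exosc10 cKO 0.40 (edgeR adjusted p 0.0829), neither past the threshold. Adult Dis3 cKO and control oocytes stood at 63.9 ± 9.82 and 59.8 ± 7.25 CPM (log2 fold change 0.12, SE 0.10, edgeR adjusted p 0.388).

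H1fx (ENSMUSG00000044927, chr6:87980421-87981482), another replication-independent linker histone gene, was counted by few reads in poly(A) libraries. GV3h controls held 8 to 19 counts and GV3h Dis3 cKO libraries 13 to 66, or 1.22 ± 0.440 against 3.00 ± 0.871 CPM, an increase in Dis3 cKO (log2 fold change 1.29, SE 0.39, edgeR adjusted p 0.00644) with 14 of 16 libraries above every control. At GV the difference was 0.38 (edgeR adjusted p 0.522). At MII the median was 4 counts per control library and 1 per Dis3 cKO library, 4 of which held 0, so the fitted decrease (log2 fold change -1.24, SE 0.41, edgeR adjusted p 0.0118) rests on levels near the limit of 3 counts that a count of 0 allows. ERCC scaling ended that call (-0.83, edgeR adjusted p 0.111), and in a fit of the 2 MII groups alone H1fx did not pass the filter on low counts. In RiboMinus libraries counts were higher, 474 to 988 per adult control library. Adult controls ranged from 21.2 to 32.9 (median 24.4) and adult Dis3 cKO from 24.7 to 58.9 (median 30.9) CPM (log2 fold change 0.47, SE 0.16, edgeR adjusted p 0.0357). That call was lost without the libraries tagged AM1713 (0.37, edgeR adjusted p 0.0657), without the filter on low counts (adjusted p 0.0516), with the counts of each tag summed (adjusted p 0.29) and under ERCC scaling, where the value was -0.15 (edgeR adjusted p 0.528). No p20 comparison called it, with group means from 15.2 ± 4.57 in dcKO to 18.8 ± 4.28 CPM in control.

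At GV3h the H2A.Z genes moved in opposite directions. H2afz (ENSMUSG00000037894, chr3:137864487-137866922) rose in Dis3 cKO at GV3h, where controls ranged from 1.02 to 3.24 (median 1.38) and knockout libraries from 1.68 to 7.73 (median 3.67) CPM (log2 fold change 1.42, SE 0.30, edgeR adjusted p 0.000123); 12 of 16 knockout libraries were above every control. At GV the control libraries were the more spread (1.20 to 8.21 CPM against 1.60 to 4.95 in Dis3 cKO) and the difference was -0.10 (edgeR adjusted p 0.845). The Dis3 effect at GV3h exceeded that at GV by 1.52 on the log2 scale (SE 0.41, edgeR adjusted p 0.0304), the only one of the 10 called for that difference, against 2.04% of all genes. Without the filter on low counts that call was lost (1.52, edgeR adjusted p 0.052). At MII Dis3 cKO and control eggs stood at 4.32 ± 2.34 and 2.94 ± 0.902 CPM (log2 fold change 0.55, SE 0.29, edgeR adjusted p 0.115). Without library 15, which stands apart, the Dis3 cKO eggs stood at 3.78 ± 0.884 CPM (SD, n = 15). Counts behind these values were 6 to 62 per GV control and 9 to 27 per GV3h control library.

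In p20 oocytes H2afz was the variant with the highest log2 fold change in the double knockout. Control libraries ranged from 0.761 to 2.12 (median 1.65), Dis3 cKO from 1.40 to 5.34 (median 2.27), Exosc10 cKO from 0 to 2.23 (median 1.35) and dcKO from 1.03 to 11.2 (median 7.58) CPM. Of 8 dcKO libraries, 7 lay above every control and every Exosc10 cKO library, and 1 (library 2_1, at 1.03 CPM) lay within the control range. The means were 7.12 ± 3.41 CPM (SD, n = 8) and 1.60 ± 0.514 (log2 fold change 2.15, SE 0.44, edgeR adjusted p 0.000109), and the increase over Exosc10 cKO was 2.47 (edgeR adjusted p 2.69e-05) and that over Dis3 cKO had a 95% interval of 0.65 to 2.35 (edgeR adjusted p 0.00435). Among libraries with a 2 in their titles the increase over control was 1.78 (edgeR adjusted p 0.107), and among those with a 1 it was 2.42 (edgeR adjusted p 1.82e-05). The increase over Dis3 cKO among those with a 2 was 0.84 (edgeR adjusted p 0.45). Dis3 cKO alone (0.66, edgeR adjusted p 0.435) and Exosc10 cKO alone (-0.32, edgeR adjusted p 0.739) did not pass the test. H2afz counts were low here, at 13 to 43 per control, 13 to 74 per Dis3 cKO, 0 to 39 per Exosc10 cKO and 14 to 159 per dcKO library.

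H2afv (ENSMUSG00000041126, chr11:6427226-6444511), the gene of the second H2A.Z protein, fell in Dis3 cKO at GV and GV3h. GV controls ranged from 35.1 to 56.9 (median 54.9) and GV Dis3 cKO libraries from 24.0 to 45.6 (median 36.3) CPM (log2 fold change -0.52, SE 0.15, edgeR adjusted p 0.00682). At GV3h the ranges were 45.5 to 54.7 and 30.7 to 47.1 CPM, so that 15 of 16 knockout libraries lay below every control (log2 fold change -0.45, SE 0.15, edgeR adjusted p 0.0119). At MII both groups were low, at 8.89 ± 2.63 and 9.69 ± 5.37 CPM (log2 fold change -0.12, SE 0.16, edgeR adjusted p 0.544). In RiboMinus libraries H2afv lay between 6.19 ± 2.02 (dcKO) and 9.11 ± 2.13 CPM (adult control), and no knockout comparison called it; in adult oocytes the difference of -0.32 (edgeR adjusted p 0.216) became -0.68 (edgeR adjusted p 0.024) when only the knockout libraries tagged AM1713 were kept.

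H2afx (ENSMUSG00000049932, chr9:44334715-44336077), which encodes the H2A form phosphorylated at DNA breaks, was lower in Dis3 cKO at GV3h and higher at MII. At GV3h control libraries ranged from 58.2 to 109 (median 80.8) and Dis3 cKO from 38.6 to 73.3 (median 51.8) CPM (log2 fold change -0.63, SE 0.20, edgeR adjusted p 0.0111), with 11 of 16 knockout libraries below every control; under ERCC scaling the adjusted p was 0.0638. At GV the value of -0.54 missed the threshold (SE 0.21, edgeR adjusted p 0.0535), although 11 of 15 libraries lay below every control, and it passed in a fit of the 2 groups alone (-0.55, edgeR adjusted p 0.0035) and under ERCC scaling (-0.80, edgeR adjusted p 0.0257). At MII controls ranged from 2.33 to 18.3 (median 6.61) and Dis3 cKO eggs from 10.2 to 51.7 (median 25.3) CPM. The knockout mean of 28.0 ± 12.8 CPM (SD, n = 16) was 3.94 times the control mean (7.10 ± 4.96 CPM (SD, n = 8); log2 fold change 1.98, SE 0.24, edgeR adjusted p 2.51e-10), and 13 of 16 knockout libraries lay above every control. The Dis3 effect at MII exceeded that at GV by 2.52 (SE 0.31, edgeR adjusted p 1.23e-08).

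At p20, H2afx stood at 166 ± 51.4 CPM (SD, n = 8) in dcKO, 112 ± 25.9 in control, 92.9 ± 14.8 in Dis3 cKO and 97.7 ± 27.8 CPM in Exosc10 cKO. The increases in dcKO were 0.57 (edgeR adjusted p 0.00728) over control, 0.84 (edgeR adjusted p 0.000205) over Dis3 cKO and 0.77 (edgeR adjusted p 0.000521) over Exosc10 cKO. These increases split by the first number in the library titles: the 4 dcKO libraries with a 1 ranged 187 to 252 CPM and the 4 with a 2 ranged 102 to 137, the latter within the control range of 74.9 to 153. Within the libraries with a 1 the increase over control was 0.99 (edgeR adjusted p 4.65e-05), and within those with a 2 it was 0.070 (edgeR adjusted p 0.864). The increases over Dis3 cKO and Exosc10 cKO were lost there as well (0.50, edgeR adjusted p 0.13 and 0.47, edgeR adjusted p 0.145). What the number stands for is not given in the labels. With the counts of each number summed, the adjusted p of the increase over control was 0.0805, and ERCC scaling also ended that call (0.47, edgeR adjusted p 0.0574). In adult oocytes H2afx stood at 126 ± 18.9 in Dis3 cKO and 147 ± 30.5 CPM in control (log2 fold change -0.20, SE 0.12, edgeR adjusted p 0.218).

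H2afj (ENSMUSG00000060032, chr6:136808248-136810074), the gene of H2A.J, showed the highest log2 fold change of the 10 in each of the poly(A) Dis3 comparisons. GV controls ranged from 19.8 to 42.8 (median 26.8) and Dis3 cKO from 44.4 to 127 (median 64.2) CPM. GV3h controls ranged from 14.4 to 27.7 (median 22.0) and Dis3 cKO from 35.9 to 136 (median 78.9) CPM. MII controls ranged from 1.06 to 9.11 (median 2.68) and Dis3 cKO from 20.8 to 94.4 (median 36.2) CPM, or from 20.8 to 68.8 without library 15. At none of the 3 stages did the groups overlap: every one of the 15, 16 and 16 knockout libraries lay above every control. The means were 70.5 ± 23.3 CPM (SD, n = 15) against 28.6 ± 7.43 at GV (log2 fold change 1.30, SE 0.25, edgeR adjusted p 3.55e-05), 75.4 ± 30.8 against 21.5 ± 3.92 at GV3h (log2 fold change 1.81, SE 0.25, edgeR adjusted p 2.68e-08) and 41.1 ± 18.5 against 3.53 ± 2.62 CPM at MII (log2 fold change 3.53, SE 0.29, edgeR adjusted p 2.34e-16). The effect at MII exceeded that at GV by 2.23 (SE 0.35, edgeR adjusted p 4.61e-06), whereas the difference between GV3h and GV was 0.51 (edgeR adjusted p 0.524). H2afj resembles the H2A genes of the histone clusters in sequence, and how reads shared between such genes were counted is not given, so its counts are uncertain to that extent.

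In RiboMinus libraries H2afj rose in adult Dis3 cKO, p20 Exosc10 cKO and dcKO. Adult controls ranged from 8.14 to 19.2 (median 11.4) and adult Dis3 cKO from 17.6 to 119.8 (median 32.2) CPM, with 7 of 8 knockout libraries above every control (log2 fold change 2.17, SE 0.38, edgeR adjusted p 0.000363). At p20 the control libraries ranged from 6.90 to 12.4 (median 9.31), Dis3 cKO from 3.36 to 11.9 (median 8.85), Exosc10 cKO from 8.14 to 27.4 (median 19.5) and dcKO from 27.7 to 40.5 (median 34.6) CPM. Exosc10 cKO exceeded control by 0.97 (edgeR adjusted p 0.00195), with 6 of 8 libraries above every control, and within libraries with a 1 or a 2 in their titles alone that increase was 0.92 (edgeR adjusted p 0.103) and 1.05 (edgeR adjusted p 0.0568). Every dcKO library lay above every library of the other 3 p20 groups, and dcKO exceeded control by 1.86 (SE 0.21, edgeR adjusted p 8.03e-09), Dis3 cKO by 2.03 (edgeR adjusted p 2.13e-09) and Exosc10 cKO by 0.89 (edgeR adjusted p 0.000533). In p20 Dis3 cKO the difference was -0.17 (edgeR adjusted p 0.733) with a 95% interval of -0.58 to 0.24, and the Dis3 effect in adult oocytes exceeded that at p20 by 2.30 (SE 0.41, edgeR adjusted p 8.47e-05).

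H2afy (ENSMUSG00000015937, chr13:56073622-56135626), the gene of macroH2A1, a variant with a large globular domain that is linked to silent chromatin, rose in Dis3 cKO at GV3h and MII. GV3h controls ranged from 10.6 to 20.6 (median 16.5) and Dis3 cKO from 19.1 to 58.3 (median 27.4) CPM, with 14 of 16 knockout libraries above every control (log2 fold change 0.91, SE 0.21, edgeR adjusted p 0.000275). At MII the ranges were 6.14 to 20.1 and 9.56 to 26.6 CPM (log2 fold change 0.59, SE 0.20, edgeR adjusted p 0.0156), and in a fit of the 2 groups alone the adjusted p was 0.0513. At GV the knockout libraries fell into a higher and a lower set: libraries 1 to 4 stood at 49.8, 32.9, 52.8 and 46.4 CPM, above every control, and the other 11 between 18.2 and 26.2, within the control range (log2 fold change 0.40, SE 0.20, edgeR adjusted p 0.165 for all 15). At p20, dcKO exceeded control (0.71, edgeR adjusted p 0.00746) and Dis3 cKO (0.86, edgeR adjusted p 0.00179), and among libraries with a 2 in their titles the increases were 0.15 (edgeR adjusted p 0.775) and 0.60 (edgeR adjusted p 0.181). With the counts of each number summed, neither passed (edgeR adjusted p 0.0946 and 0.0533). H2afy overlaps the lncRNA gene Gm31485, and whether reads were counted by strand is not given, so reads of the 2 cannot be told apart.

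In adult RiboMinus oocytes the increases of H2afj and H2afy differed between the tags in the library titles. The Dis3 cKO libraries tagged AM1713 ranged 38.9 to 119.8 CPM for H2afj and those tagged AM1757 17.6 to 25.5, while controls ranged 8.14 to 19.2. For H2afy the ranges were 14.01 to 31.7, 7.70 to 10.6 and 5.38 to 9.73 CPM. Without AM1713 the H2afj increase was 0.89 (edgeR adjusted p 0.00536) and that of H2afy 0.14 (edgeR adjusted p 0.657), which ended the call for H2afy, as did ERCC scaling (0.70, edgeR adjusted p 0.129). The increase of the Dis3 effect on H2afy from p20 to adult (1.29, edgeR adjusted p 0.019) was 0.30 (edgeR adjusted p 0.719) without AM1713. With the counts of each tag summed, which leaves 2 sums per group, the increases were 2.06 (edgeR adjusted p 0.185) for H2afj and 1.07 (edgeR adjusted p 0.335) for H2afy, and no gene of the whole table passed in edgeR, while 3577 genes, 1 of the 10 among them, had an unadjusted p under 0.05. DESeq2 on single libraries called the same number of the 10, 3, as edgeR did. What the tags stand for is not given.

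**Figure D2:**
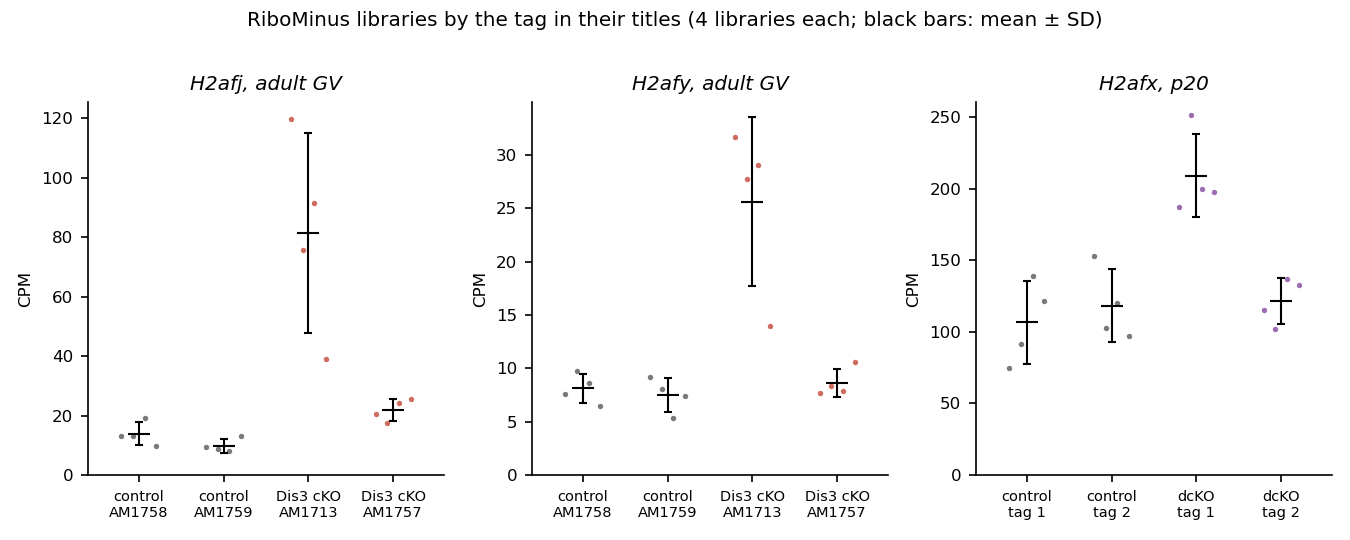
CPM (linear axes from 0) of H2afj and H2afy in adult GV control and Dis3 cKO libraries and of H2afx in p20 control and dcKO libraries, split by the tag in the library titles; points are libraries and black bars the mean ± SD of 4. The knockout libraries tagged AM1713 and the dcKO libraries with tag 1 are the high ones.

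Of the 2 H3.3 genes, H3f3b was not called between genotypes by gene counts and H3f3a was in 2 comparisons. H3f3b (ENSMUSG00000016559, chr11:116021961-116026039) stood at 330.5 ± 49.3 against 310.3 ± 70.4 CPM (SD, n = 8) at GV, 331 ± 42.4 against 317 ± 37.3 at GV3h and 678 ± 117 against 626 ± 82.2 CPM at MII. The 95% intervals of these log2 differences were -0.10 to 0.28, -0.13 to 0.25 and -0.072 to 0.31, and none passed the test (edgeR adjusted p 0.564, 0.64 and 0.339). On the ERCC scale H3f3b was called higher in MII Dis3 cKO (0.42, edgeR adjusted p 0.0121), where the median of all genes was 0.52. In RiboMinus knockouts its log2 fold changes were 0.17 (adult Dis3 cKO), 0.17 (p20 Dis3 cKO), 0.11 (Exosc10 cKO) and -0.011 (dcKO), none called, with intervals that reached from -0.19 to 0.35 over the 4.

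H3f3a (ENSMUSG00000060743, chr1:180802560-180813605) differed from control in 2 of the 7 comparisons. At GV3h it was called lower in a fit of the 2 groups alone (-0.28, edgeR adjusted p 0.0198), but not in the fit of all 6 groups (-0.27, edgeR adjusted p 0.243). MII controls fell into 5 libraries from 26.8 to 44.0 CPM and 3 (libraries 6 to 8) from 74.6 to 85.7, and MII Dis3 cKO eggs ranged from 11.6 to 121 (median 83.0) CPM, the lowest being library 15. The knockout mean was higher (80.3 ± 23.5 CPM (SD, n = 16) against 51.9 ± 25.1; log2 fold change 0.63, SE 0.19, edgeR adjusted p 0.00467), without the libraries that stand apart by 0.71 (edgeR adjusted p 4.91e-05), and in a fit of the 2 groups alone the adjusted p was 0.0758. In p20 Exosc10 cKO it fell from 12.6 ± 2.17 to 8.02 ± 2.94 CPM (log2 fold change -0.66, SE 0.20, edgeR adjusted p 0.0408), a call that ERCC scaling (-0.61, edgeR adjusted p 0.282), no filter on low counts (adjusted p 0.0766) and either title number alone (-0.56, edgeR adjusted p 0.181 and -0.79, edgeR adjusted p 0.232) ended. The annotated pseudogenes H3f3a-ps1 and H3f3a-ps2 held at most 6 counts in any library. How reads shared between copies were counted is not given, so these counts cannot show whether H3f3a lost reads.

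**Figure D3:**
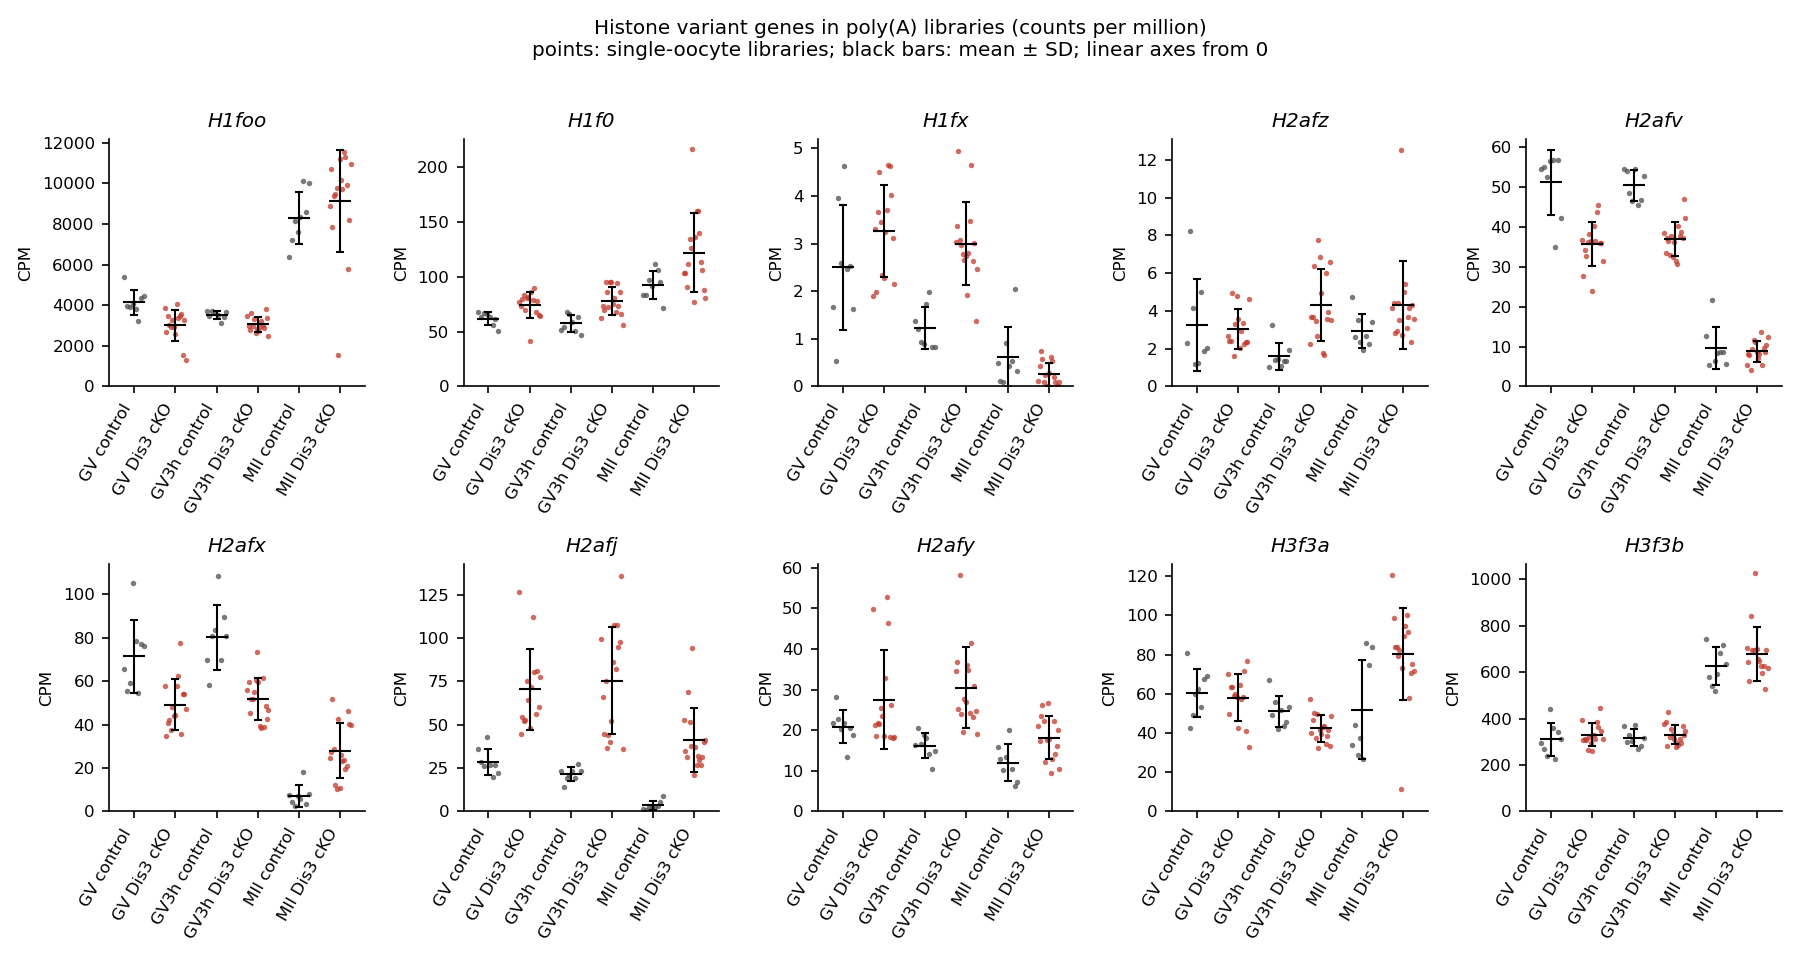
CPM (linear axes from 0, 1 panel per gene) of the 10 histone variant genes in the 6 poly(A) groups; points are single-oocyte libraries, grey for control and red for Dis3 cKO, and black bars the mean ± SD. H2afj shows no overlap between genotypes at any stage, and H2afv, H2afx and H2afj are lowest at MII in controls.

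The comparison of GV3h with GV oocytes asks what 3 h of culture change. None of the 10 genes was called between GV3h and GV controls by edgeR or by DESeq2, where 2.71% of all genes were in edgeR. At an unadjusted p under 0.05 each tool had 2 genes, in edgeR H1fx (-1.02, edgeR adjusted p 0.219) and H2afz (-1.02, edgeR adjusted p 0.0798). The widest 95% interval among the others was that of H2afj, -0.94 to 0.12.

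The comparison of MII with GV covers meiotic maturation. Relative to other RNA in the same library, 3 higher and 5 lower of 10 passed in controls (58.5% of all genes) and 4 higher and 5 lower in Dis3 cKO (63.3%). In controls H2afx fell from 71.5 ± 16.8 to 7.10 ± 4.96 CPM (log2 fold change -3.33, SE 0.27, edgeR adjusted p 7.33e-18), H2afj from 28.6 ± 7.43 to 3.53 ± 2.62 (log2 fold change -3.00, SE 0.30, edgeR adjusted p 7.58e-14) and H2afv from 51.2 ± 8.08 to 9.69 ± 5.37 (log2 fold change -2.40, SE 0.18, edgeR adjusted p 7.18e-19), in each case with every MII library below every GV library. H1fx and H2afy fell as well (-1.98, edgeR adjusted p 0.000131 and -0.80, edgeR adjusted p 0.00241). H1foo rose from 4146 ± 622 to 8302 ± 1297 CPM (log2 fold change 1.00, SE 0.18, edgeR adjusted p 1.46e-06), and H3f3b from 310.3 ± 70.4 to 626 ± 82.2 (log2 fold change 1.01, SE 0.11, edgeR adjusted p 2.39e-12). H1f0 rose by 0.59 (edgeR adjusted p 0.000228); every MII library lay above every GV library for these 3. For H1f0 and H3f3b this no longer held in CPM without TMM scaling. The share of all genes without overlap between groups is not given here, for this or any other comparison.

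The 3 increases turned into decreases when libraries were scaled to the ERCC RNAs, of which the same diluted volume went into each poly(A) lysate. Gene counts per ERCC count were 137 ± 16.2 in GV and 46.0 ± 3.43 in MII controls (SD, n = 8 each), and the median log2 fold change of all genes was -0.27 by gene counts and -2.12 by ERCC counts. On the ERCC scale the changes were -0.86 (edgeR adjusted p 0.000926) for H1foo, -1.29 (edgeR adjusted p 8.82e-09) for H1f0 and -0.84 (edgeR adjusted p 3.18e-06) for H3f3b, which lie above that median, and -5.18 (edgeR adjusted p 1.35e-20) for H2afx, -4.89 (edgeR adjusted p 3.92e-21) for H2afj and -4.25 (edgeR adjusted p 2.39e-25) for H2afv, which lie below it. Captured poly(A) RNA is what both scales count, and a change in amount and a change in capture by tail length cannot be told apart here. In Dis3 cKO the log2 changes of H2afx and H2afj were -0.81 (edgeR adjusted p 4.34e-05) and -0.78 (edgeR adjusted p 0.00033) by gene counts. By ERCC counts they were -1.995 (edgeR adjusted p 5.83e-12) and -2.12 (edgeR adjusted p 2.83e-14), beside a median of all genes of -1.505. By gene counts H1foo rose by 1.60 (SE 0.13, edgeR adjusted p 5.17e-18), and on the ERCC scale by 0.41 (edgeR adjusted p 0.0237). Both H1foo values include the libraries that stand apart. H3f3a and H1f0 were higher at MII in Dis3 cKO by gene counts, 0.47 and 0.71, and lower by ERCC counts, -0.69 (edgeR adjusted p 0.00074) and -0.56 (edgeR adjusted p 0.000157). H3f3b was higher by gene counts (1.04), and its ERCC value of -0.23 did not pass (edgeR adjusted p 0.0593).

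**Figure D4:**
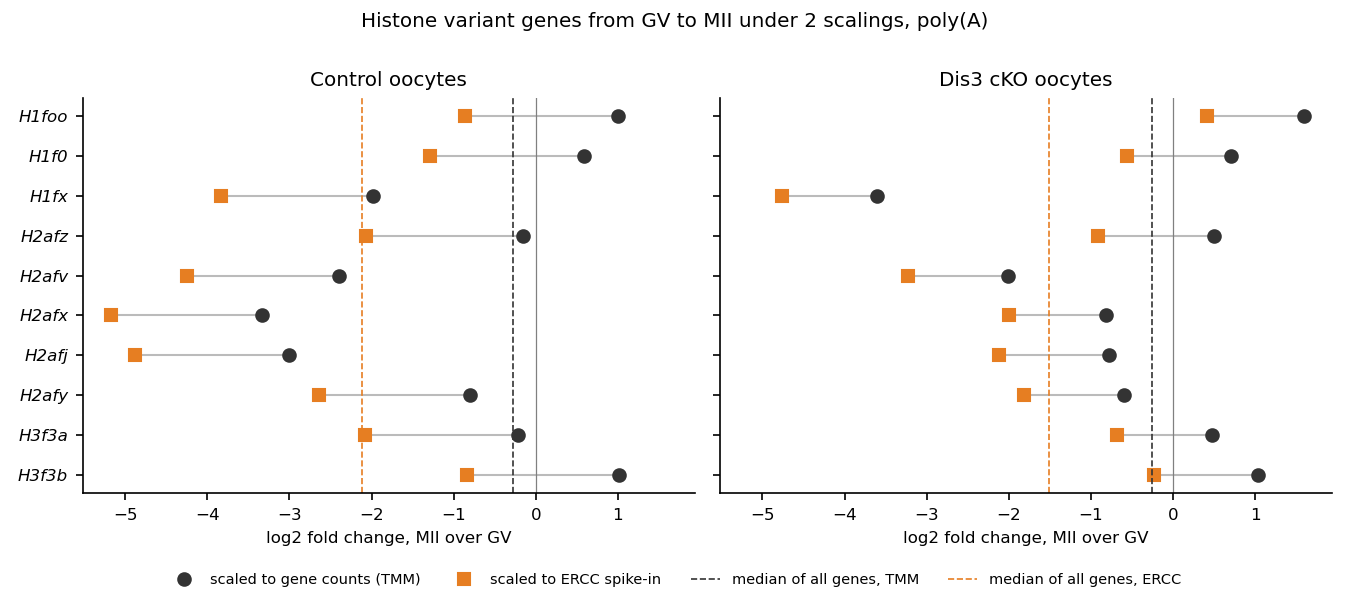
Log2 fold change from GV to MII of each histone variant gene in control (left) and Dis3 cKO oocytes (right), with libraries scaled to gene counts by TMM (circles) or to ERCC counts (squares); dashed lines are the medians of all genes. In controls H1foo, H1f0 and H3f3b are right of 0 as circles and left of 0 as squares.

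Whether the Dis3 effect itself differed between MII and GV was tested as an interaction. H2afx (2.52), H2afj (2.23) and H1fx (-1.62, edgeR adjusted p 0.0414) passed, 3 of 10 where 13.2% of all genes did. The H1fx term rests on MII counts of 0 to 19 and was lost under ERCC scaling (-0.92, edgeR adjusted p 0.212), without the filter on low counts (adjusted p 0.0847) and in a fit of the 4 groups alone (adjusted p 0.12). H1foo (0.59, edgeR adjusted p 0.0561) and H3f3a (0.69, edgeR adjusted p 0.0635) missed the threshold with all libraries, and without the libraries that stand apart they passed it, at 0.56 (edgeR adjusted p 0.000761) and 0.69 (edgeR adjusted p 0.012). On the ERCC scale 8 of 10 passed, where 5237 of all 17389 genes did and the median difference of all genes was 0.68.

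**Figure D5:**
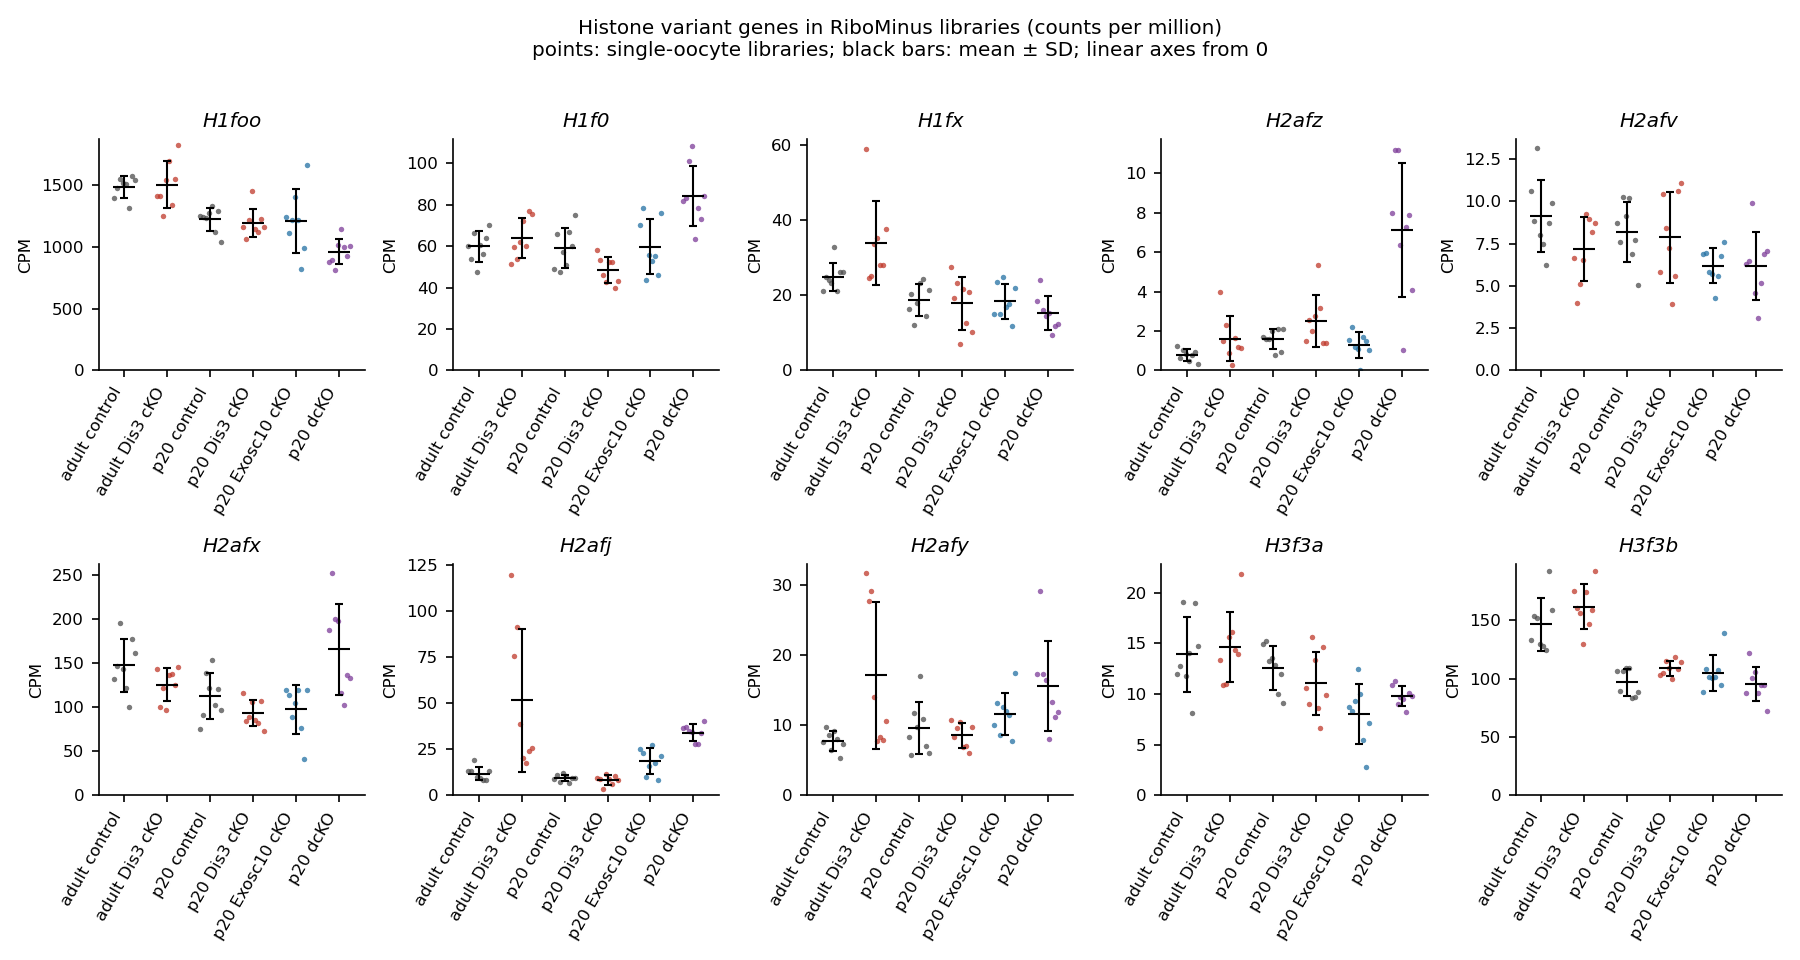
CPM (linear axes from 0, 1 panel per gene) of the 10 histone variant genes in the 6 RiboMinus groups of 8 libraries; points are single-oocyte libraries and black bars the mean ± SD. H2afz is highest in p20 dcKO, and H2afj is highest in adult Dis3 cKO, where its spread is widest, followed by p20 dcKO.

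Loss of both ribonucleases was compared with loss of each. Against Dis3 cKO, dcKO gave 5 higher and 1 lower of 10 (51.5% of all genes) and against Exosc10 cKO 4 higher and 1 lower (49.2%), shares close to those of all genes. H1foo was the member called lower in both, and H1f0, H2afz, H2afx and H2afj were called higher in both. H2afy stood at 15.6 ± 6.36 CPM (SD, n = 8) in dcKO, 8.60 ± 1.78 in Dis3 cKO and 11.6 ± 3.02 in Exosc10 cKO, and only the first difference passed (0.86, edgeR adjusted p 0.00179 against 0.44, edgeR adjusted p 0.104). These comparisons share the dcKO libraries. H2afv, H1fx, H3f3a and H3f3b were called in neither.

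Adult GV and p20 control oocytes, which differ in growth and age, were compared. Adult and p20 libraries share no title tag, so growth and age cannot be told apart from differences between sets of libraries. By gene counts 2 higher and 0 lower of 10 passed (19.1% of all genes): H3f3b stood at 146 ± 22.7 in adult and 96.9 ± 11.7 CPM (SD, n = 8) in p20 controls, with no overlap (log2 fold change 0.59, SE 0.094, edgeR adjusted p 7.59e-06), and H1foo at 1482 ± 88.4 and 1220 ± 96.3 CPM (log2 fold change 0.28, SE 0.089, edgeR adjusted p 0.0205). With counts summed per title tag neither passed (edgeR adjusted p 0.0524 and 0.207). Gene counts per ERCC count were 403 ± 48.5 in adult and 1267 ± 178 in p20 controls, and on the ERCC scale both genes were lower in adults (-1.11 and -1.40), as was the median of all genes (-1.69 against -0.004 by gene counts). Whether the same amount of ERCC RNA went into adult and p20 libraries is not given. Tested as a difference between adult and p20 oocytes, with the same limit, the Dis3 effect passed for 2 of 10 (9.32% of all genes). It was higher in adults for both H2afj (2.30) and H2afy (1.29). The H2afy difference was lost under ERCC scaling (1.14, edgeR adjusted p 0.127) and without AM1713 (0.30, edgeR adjusted p 0.719). That of H2afj fell to 1.06 (edgeR adjusted p 0.0471) without AM1713. With counts summed per title tag neither was called (edgeR adjusted p 0.195 for H2afj and 0.465 for H2afy).

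Levels of each gene were ordered by group mean within each assay, and neighbours were compared by whether their mean ± SD overlapped. For H2afj the order in poly(A) data ran from MII control (3.53 ± 2.62) through GV3h control and GV control to MII, GV and GV3h Dis3 cKO (75.4 ± 30.8 CPM), and the step above MII control was the only one without overlap. For H2afx MII control was lowest and GV3h control highest, with the same single gap above MII control. For H3f3b the 4 GV and GV3h groups overlapped and lay below both MII groups, and H1foo had the same gap. H2afv had gaps above the MII groups and above the GV and GV3h Dis3 cKO groups. For H1f0, H1fx, H2afz, H2afy and H3f3a each group's mean ± SD overlapped that of the next in order. In RiboMinus data gaps stood above dcKO and below adult control for H1foo, and between Exosc10 cKO and dcKO for H2afj. For H3f3b a gap stood below adult control, and the other 7 genes showed none. The share of all genes with such gaps is not given here for either assay, so the gaps describe these variants only.

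Genes of the machinery that places variants were read from lists written with earlier results of these data known, and examples are the 2 called genes with the widest change per comparison. The shares of all genes called were 21.9% at GV, 38.6% at GV3h, 42.1% at MII, 28.1% in adult Dis3 cKO, 7.37% in p20 Dis3 cKO, 7.45% in Exosc10 cKO and 53.7% in dcKO. H3.3 deposition factors (9 genes; Hira and partners, Daxx and Atrx among them) gave 0 higher and 2 lower at GV, 1 higher and 2 lower at GV3h, 1 higher and 3 lower at MII, 1 higher and 4 lower in adult Dis3 cKO, 0 higher and 1 lower in Exosc10 cKO and 2 higher and 4 lower in dcKO. At the poly(A) stages these are about the shares of all genes. In p20 Dis3 cKO edgeR and DESeq2 each called 0 of 9, with 3 at an unadjusted p under 0.05 in edgeR. Atrx, the chromatin remodeller that works with Daxx, fell at GV (543 ± 173 against 923 ± 172 CPM; log2 fold change -0.76, SE 0.18, edgeR adjusted p 0.00083), at MII (-0.70) and in dcKO (-0.86, edgeR adjusted p 0.000216). Daxx, the H3.3 chaperone itself, rose at GV3h (log2 fold change 0.75, SE 0.25, edgeR adjusted p 0.0131) and MII (0.74). Cabin1, a subunit of the Hira complex, fell at GV3h (123 ± 17.4 against 178 ± 15.5 CPM; -0.53) and in adult Dis3 cKO (-0.57), and Hira fell in adult Dis3 cKO (-0.61). The list's median log2 fold change was -0.15, -0.13 and -0.15 at the 3 poly(A) stages, beside 0.035, 0.067 and 0.16 for all genes. From GV to MII in controls the list gave 6 higher and 0 lower (58.5% of all genes), with Asf1b (1.11) and Cabin1 (0.92) the widest; by ERCC counts both were lower, -0.75 and -0.94.

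Of 11 H2A.Z exchange factors, 0 higher and 1 lower passed at GV, 0 higher and 2 lower at GV3h, 3 higher and 3 lower at MII, 1 higher and 2 lower in adult Dis3 cKO and 0 higher and 4 lower in dcKO. The shares of all genes called there were 21.9%, 38.6%, 42.1%, 28.1% and 53.7%, and no difference between the list and all genes was tested. In p20 Dis3 cKO edgeR and DESeq2 each called 0 of 11, with 0 at an unadjusted p under 0.05 in edgeR. In Exosc10 cKO edgeR called 0, with 2 at an unadjusted p under 0.05, and DESeq2 1. Srcap, the ATPase that inserts H2A.Z, fell at GV3h (40.4 ± 7.89 against 73.1 ± 12.6 CPM; log2 fold change -0.86, SE 0.13, edgeR adjusted p 1.76e-07) and in adult Dis3 cKO (-0.70, edgeR adjusted p 9.52e-05), and Ep400, a related ATPase, fell in the same groups (-0.52 and -0.42). Ruvbl1 and Dmap1, shared subunits of these complexes, rose at MII (0.95 and 0.64). From GV to MII in controls the list gave 5 higher and 5 lower (58.5% of all genes), with Dmap1 at 12.9 ± 2.45 against 131 ± 8.36 CPM (-3.35) and Znhit1 at -3.35; by ERCC counts these were -5.20 each, and of all genes 58 were called higher and 15217 lower.

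Of 11 general histone chaperones, 0 higher and 2 lower passed at GV, 0 higher and 3 lower at GV3h, 2 higher and 1 lower at MII, 0 higher and 4 lower in adult Dis3 cKO, 1 higher and 1 lower in Exosc10 cKO and 1 higher and 4 lower in dcKO. The shares of all genes were 21.9%, 38.6%, 42.1%, 28.1%, 7.45% and 53.7%, and no difference from them was tested. In p20 Dis3 cKO edgeR and DESeq2 each called 0 of 11, with 2 at an unadjusted p under 0.05 in edgeR. Npm2, the oocyte nucleoplasmin, fell at GV (678 ± 92.9 against 879 ± 72.0 CPM; log2 fold change -0.38, SE 0.14, edgeR adjusted p 0.0451), in adult Dis3 cKO (-0.57) and in p20 Exosc10 cKO (-0.44, edgeR adjusted p 0.000779). Nasp, a chaperone that also binds linker histones, rose at MII (0.59) and in p20 Exosc10 cKO (0.23). The FACT subunits Ssrp1 and Supt16 fell at GV3h (-0.36 and -0.33).

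Of 10 other histone variants, 5 could be tested in poly(A) and 4 in RiboMinus data. In poly(A) data 1 higher and 1 lower passed at GV (21.9% of all genes), 1 higher and 2 lower at GV3h (38.6%) and 1 higher and 0 lower at MII (42.1%). In RiboMinus data 0 higher and 1 lower passed in adult Dis3 cKO (28.1%) and 1 higher and 0 lower in dcKO (53.7%). In p20 Dis3 cKO and Exosc10 cKO edgeR and DESeq2 each called 0 of 4, with 0 and 1 at an unadjusted p under 0.05 in edgeR. H2afb1, a short H2A form known from testis, was near 0 in controls: 0.689 ± 0.838 against 0.0137 ± 0.0389 CPM at GV, which edgeR called higher (4.63, adjusted p 0.000318), a fold that depends on the prior count. It was also called higher at GV3h (4.16) and MII (3.48), with the same limit. Hist1h2aa fell at GV3h (-0.66, edgeR adjusted p 0.0127) and in adult Dis3 cKO (-0.60, edgeR adjusted p 0.00479). Cenpa, the centromeric H3 form, fell at GV (56.6 ± 11.9 against 70.9 ± 19.3 CPM; -0.32) and rose in dcKO (0.36). The replication-dependent linker histones, whose main transcripts lack poly(A) tails, are the contrast to the linker variants: in RiboMinus data 5 higher and 0 lower of 5 passed in dcKO (median 3.04; 53.7% of all genes), 3 higher and 0 lower in Exosc10 cKO (7.45%) and 2 higher and 0 lower in adult Dis3 cKO (28.1%). In p20 Dis3 cKO (7.37%) edgeR and DESeq2 each called 0 of 5, with 2 at an unadjusted p under 0.05 in edgeR. Hist1h1c stood at 72.1 ± 42.2 against 6.32 ± 2.26 CPM in dcKO and control (log2 fold change 3.52, SE 0.42, edgeR adjusted p 1.99e-08) and Hist1h1e at 57.8 ± 42.1 against 3.46 ± 2.23 CPM (4.07), beside 0.52 for H1f0 and -0.34 for H1foo. Cluster histones share near-identical stretches, so their counts are uncertain where reads were shared. In poly(A) data 4 of the 5 were tested, with 2 higher and 0 lower at GV (median 1.06; 21.9% of all genes), 1 higher and 0 lower at GV3h (median -0.11; 38.6%) and 1 higher and 1 lower at MII (median -0.48; 42.1%). Hist1h1e rose at GV (1.68), GV3h (1.49) and MII (1.56). Hist1h1a rose at GV (0.66, edgeR adjusted p 0.0139) and fell at MII (-0.88, edgeR adjusted p 0.000131).

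The genes whose group means most resembled each variant were found over the 12 groups, with each assay centred on its own mean, among 6290 genes. The closest, for the variants other than H2afx, were Eif2b1 (r = 0.991) for H1foo, Coq10a (r = 0.971) for H1f0, Srsf2 (r = 0.964) for H1fx, Lin9 (r = 0.961) for H2afz, Cenpm (r = 0.995) for H2afv, Luc7l (r = 0.979) for H2afj, Gm45133 (r = 0.966) for H2afy, Cacng4 (r = 0.811) for H3f3a and Aurkc (r = 0.975) for H3f3b. H3f3a had the least close neighbour. No gene was among the 3 closest of more than 1 variant. By role the closest differ, from the translation factor subunit Eif2b1 to the centromere protein gene Cenpm, the splicing factor Srsf2 and the meiotic kinase Aurkc. These correlations rest on 12 group means that share stages, genotypes and library types, and describe likeness only.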

How the data were processed

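Counts per gene and per ERCC spike-in RNA, 1 file of each per single-oocyte library, are the authors' deposited raw counts; the submitters' processing notes name cutadapt 2.5, STAR 2.7.2a, SAMtools 1.9, HTSeq 0.9.1 and DESeq2 1.24.0 and the build mm10. Strand use and annotation release are not given in the sources used here. CUT&Tag peak lists, 1 per library, carry the authors' deposited signal per peak; per the submitters' processing notes SEACR was used, and per the series' design text reads were first sampled to an equal number without removal of duplicates. That signal was not compared between lists here.

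Of 72 poly(A) libraries in the design text, 71 were analysed; GV Dis3 cKO number 9 was not analysed here. No row named no gene, and no 2 libraries were identical. Groups came from the stage and genotype labels. Counts were fitted in R 4.3.3 with the quasi-likelihood test of edgeR 4.0.16 after filterByExpr and TMM (2-sided, Benjamini-Hochberg over all genes tested, threshold 0.05): 71 poly(A) libraries in 1 fit, 16 adult, 32 p20 and, for adult against p20, all 48 RiboMinus libraries. CPM are counts per 1000000 gene counts scaled by TMM (1 scaling per assay), which changed a library's CPM by a factor of 0.831 to 1.23 in poly(A) and 0.879 to 1.11 in RiboMinus data, and SE and 95% intervals are those of the fitted log2 fold change. The fit was tested on simulated data with 200 changed genes. The simulation gave every gene the same dispersion and held no title tags or outlying libraries, so it does not cover those features of the real data. Alternatives were ERCC scaling, DESeq2 1.42.0, no filter on low counts, a replicate block, the compared groups alone, sums per title tag, and subsets of libraries.

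The 10 genes and all lists were chosen with earlier results of these data known. From each list the 2 called genes with the widest log2 change per comparison could be named, and for each variant the 3 genes with the highest Pearson correlation of mean log2 CPM (prior 1) over the 12 groups; the closest gene to H2afx is not reported here. Gene coordinates and the sequences are from RefSeq tables of GRCm38.p6, the same build as mm10.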

Additional observations from a re-analysis of the deposited data

Results flagged for a closer look

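In 90 sets of 8 libraries, 1 library lay far from the others of its group for 12 values, beside an assumed chance rate of about 1 in 20 sets. In poly(A) controls these were H1fx in MII library 7 (2.05 CPM, next 0.923), H2afz in GV3h library 2 (3.24 CPM, next 1.95), H2afv in MII library 3 (21.7 CPM, next 12.7), H2afx in GV library 4 (105 CPM, next 78.4) and H2afx in MII library 6 (18.3 CPM, next 7.93). In adult RiboMinus oocytes they were H1fx in control AM1759_1 (32.9 CPM, next 26.2), H1fx in Dis3 cKO AM1713_1 (58.9 CPM, next 37.7) and H2afj in control AM1758_3 (19.2 CPM, next 13.3). At p20 they were H1foo in Dis3 cKO 1_4 (1449 CPM, next 1220), H2afz in Dis3 cKO 2_1 (5.34 CPM, next 3.19), H2afy in dcKO 1_2 (29.1 CPM, next 17.4) and H3f3b in Exosc10 cKO 2_4 (139.1 CPM, next 107.9). All 12 were the highest of their group. The chance rate was not measured on these data, in which sets of different genes share libraries.

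Tested directly as a difference between stages, the Dis3 effect differed in 6 cases. In log2 units, it was higher at GV3h than at GV by 1.52 for H2afz. At MII the difference from GV was -1.62 for H1fx, 2.52 for H2afx and 2.23 for H2afj. From p20 to adult oocytes it was higher by 1.29 for H2afy and by 2.30 for H2afj. The H2afx and H2afj differences from GV to MII held the same side of the threshold with ERCC scaling, DESeq2, no filter, the replicate block, the 4 groups alone and without the libraries that stand apart, while those of H1fx and H2afy rest on few counts and on 4 libraries of 1 title tag. The p20 to adult difference of H2afj was 1.06 (edgeR adjusted p 0.0471) without the libraries tagged AM1713, and with counts summed per title tag it was not called (edgeR adjusted p 0.195). The H2afz difference was lost without the filter on low counts (edgeR adjusted p 0.052).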

How the results depend on the processing

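Of 63 calls on single variant genes, 410 repeats under other settings gave the same side of the threshold and direction in 350, lost the call in 51 and turned the direction in 9, the last all with ERCC scaling. The settings without the 3 libraries that stand apart and those that drop or keep a single title tag were chosen after seeing the data, as was CPM without TMM, which changed whether 2 groups overlapped in 4 of 130 cases. Same-numbered libraries deviated together little at the median (correlation 0.0273 over 142 pairs in poly(A), -0.0417 over 16 in adult and 0.0415 over 48 in p20 RiboMinus data, with 27, 2 and 13 over 0.1). The medians of other pairs were -0.00181, 0.0255 and -0.0047, and the highest same-number value was 0.538, at p20. Pairs over 0.1 were not counted among the others, so pairing of some libraries is not excluded. The main fits did not use the numbers. With the replicate number as a block, the decrease of H1foo at GV was -0.41 (edgeR adjusted p 0.0752), and no other call on the 10 genes was lost. The counts below are all genes or variant genes past the threshold, with the value of the main analysis in parentheses, and signed values are log2 fold changes. The cause of these differences was not tested, beyond the smaller number of libraries in the settings that leave some out. With ERCC scaling, the genes called numbered 118 for GV3h against GV controls (from 471), 15275 for MII against GV controls (from 10179) and 5237 for the MII to GV difference in effect (from 2287). There the genes called numbered 6843 for adult Dis3 cKO (from 4305), 364 for p20 Exosc10 cKO (from 1183) and 5015 for dcKO against Exosc10 cKO (from 7809). In that fit the genes called numbered 14869 for adult against p20 controls (from 3294) and 583 for the adult to p20 difference in effect (from 1610). With ERCC scaling, the variant genes called numbered 8 for the MII to GV difference in effect (from 3), 6 for adult Dis3 cKO (from 3) and 1 for p20 Exosc10 cKO (from 2). So fitted, the variant genes called numbered 3 for dcKO against control (from 6), 3 for dcKO against Exosc10 cKO (from 5) and 10 for adult against p20 controls (from 2). As well, the variant genes called numbered 1 for the adult to p20 difference in effect (from 2). With ERCC scaling, signs turned for H1f0 -0.037 and H3f3b -0.19 in GV Dis3 cKO, H2afv 0.20 in MII Dis3 cKO, H1f0 0.12 and H2afv 0.21 in GV3h against GV controls. Also turned were H1foo -0.86, H1f0 -1.29 and H3f3b -0.84 in MII against GV controls, H1f0 -0.56, H2afz -0.92, H3f3a -0.69 and H3f3b -0.23 in MII against GV Dis3 cKO, H2afx 0.16, H3f3a 0.046 and H3f3b 0.21 in the GV3h to GV difference in effect. Opposite signs were given by H1foo -0.54, H1f0 -0.44, H1fx -0.15, H3f3a -0.49 and H3f3b -0.38 in adult Dis3 cKO, H3f3b -0.13 in p20 Dis3 cKO, H1f0 -0.045 in p20 Exosc10 cKO. Likewise turned were H3f3a 0.12 and H3f3b 0.023 in dcKO against Dis3 cKO, H2afv -0.038 in dcKO against Exosc10 cKO, H1foo -1.40, H1f0 -1.71, H1fx -1.28, H2afv -1.53, H2afx -1.30, H2afj -1.38, H3f3a -1.56 and H3f3b -1.11 in adult against p20 controls. To these add H1foo -0.19 and H2afx -0.16 in the adult to p20 difference in effect. With DESeq2, the genes called numbered 545 for the GV3h to GV difference in effect (from 355). With DESeq2, signs turned for H3f3b -0.018 in the MII to GV difference in effect, H3f3b 0.025 in dcKO against control, H1f0 -0.001 in adult against p20 controls. Also turned were H3f3b 0.004 in the adult to p20 difference in effect. Without the filter on low counts, the variant genes called numbered 0 for the GV3h to GV difference in effect (from 1, with 1 at an unadjusted p under 0.05) and 1 for p20 Exosc10 cKO (from 2). Without the filter on low counts, signs turned for H2afv 0.003 in GV3h against GV controls, H3f3b 0.001 in dcKO against control. With the replicate block, signs turned for H3f3a 0.008 in GV Dis3 cKO, H1f0 -0.002 in p20 Exosc10 cKO, H2afv -0.025 in dcKO against Exosc10 cKO. With a fit of the groups compared alone, the genes called numbered 4336 for MII Dis3 cKO (from 7315), 2083 for GV3h against GV controls (from 471) and 841 for the GV3h to GV difference in effect (from 355). There the genes called numbered 1408 for the MII to GV difference in effect (from 2287). With a fit of the groups compared alone, the variant genes called numbered 2 for MII Dis3 cKO (from 6). With a fit of the groups compared alone, signs turned for H3f3b -0.003 in the MII to GV difference in effect. Without the 3 libraries that stand apart, the genes called numbered 746 for the GV3h to GV difference in effect (from 355). Without the 3 libraries that stand apart, the variant genes called numbered 5 for the MII to GV difference in effect (from 3). Without the 3 libraries that stand apart, signs turned for H3f3a 0.016 in GV Dis3 cKO, H3f3b 0.004 in the GV3h to GV difference in effect. Without MII Dis3 cKO library 15, the variant genes called numbered 5 for the MII to GV difference in effect (from 3). Without MII Dis3 cKO library 15, signs turned for H3f3b -0.025 in the MII to GV difference in effect. Without AM1713, the genes called numbered 2856 for adult Dis3 cKO (from 4305) and 634 for the adult to p20 difference in effect (from 1610). Without AM1713, the variant genes called numbered 1 for adult Dis3 cKO (from 3) and 1 for the adult to p20 difference in effect (from 2). Without AM1713, signs turned for H2afz -0.20, H2afv 0 and H3f3b 0.028 in the adult to p20 difference in effect. Without AM1757, the genes called numbered 3095 for the adult to p20 difference in effect (from 1610). Without AM1757, the variant genes called numbered 5 for adult Dis3 cKO (from 3). Without AM1757, signs turned for H1foo -0.060, H1f0 -0.056 and H3f3a -0.11 in adult Dis3 cKO, H1foo -0.020 and H2afx -0.051 in the adult to p20 difference in effect. With counts summed per title tag, the genes called numbered 0 for adult Dis3 cKO (from 4305, with 3577 at an unadjusted p under 0.05), 286 for p20 Dis3 cKO (from 1171) and 174 for p20 Exosc10 cKO (from 1183). In that fit the genes called numbered 237 for adult against p20 controls (from 3294) and 70 for the adult to p20 difference in effect (from 1610). With counts summed per title tag, the variant genes called numbered 0 for adult Dis3 cKO (from 3, with 1 at an unadjusted p under 0.05), 1 for p20 Exosc10 cKO (from 2) and 0 for adult against p20 controls (from 2, with 3 at an unadjusted p under 0.05). So fitted, the variant genes called numbered 0 for the adult to p20 difference in effect (from 2, with 1 at an unadjusted p under 0.05). With counts summed per title tag, signs turned for H1foo 0 in adult Dis3 cKO, H2afv -0.019 in dcKO against Exosc10 cKO, H2afx -0.004 in the adult to p20 difference in effect. With title number 1 alone, the genes called numbered 615 for p20 Exosc10 cKO (from 1183). With title number 1 alone, the variant genes called numbered 0 for p20 Exosc10 cKO (from 2, with 2 at an unadjusted p under 0.05). With title number 1 alone, signs turned for H1fx 0.21 and H2afy 0.14 in p20 Dis3 cKO, H1fx 0.23 and H3f3b -0.047 in p20 Exosc10 cKO, H1fx 0.14 and H3f3b 0.031 in dcKO against control. Also turned were H3f3b 0.078 in dcKO against Exosc10 cKO. With title number 2 alone, the genes called numbered 371 for p20 Dis3 cKO (from 1171), 431 for p20 Exosc10 cKO (from 1183) and 4006 for dcKO against control (from 8531). As well, the genes called numbered 4134 for dcKO against Dis3 cKO (from 8182) and 4518 for dcKO against Exosc10 cKO (from 7809). With title number 2 alone, the variant genes called numbered 0 for p20 Exosc10 cKO (from 2, with 2 at an unadjusted p under 0.05), 2 for dcKO against control (from 6) and 2 for dcKO against Dis3 cKO (from 6). There the variant genes called numbered 2 for dcKO against Exosc10 cKO (from 5). With title number 2 alone, signs turned for H2afv 0.073 in p20 Dis3 cKO, H1f0 -0.14 in p20 Exosc10 cKO, H2afv -0.10 and H2afy -0.11 in dcKO against Exosc10 cKO. The share of calls that were higher moved by over 10 percentage points with ERCC scaling, from 61.95% to 35.3% at GV, from 64.8% to 89.7% at MII, from 55.9% to 10.2% in adult Dis3 cKO, from 49.0% to 12.8% in p20 Dis3 cKO and from 50.5% to 73.1% in dcKO against Dis3 cKO. For MII against GV it moved from 38.8% to 0.380% in controls and from 39.2% to 1.56% in Dis3 cKO, and for adult against p20 controls from 45.6% to 0.484%. It moved from 67.3% to 90.0% and from 70.5% to 97.7% for the GV3h and MII differences in effect from GV, from 42.25% to 55.9% for GV3h against GV controls, and with counts summed per title tag from 53.0% to 64.4% in Exosc10 cKO. Depth limits H1fx and H2afz in poly(A) data, where single libraries held as few as 0 and 6 counts. It also limits H2afz in RiboMinus data, where p20 control libraries held 13 to 43 counts and p20 Exosc10 cKO libraries 0 to 39.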
